A study of Mus musculus with 22 samples.

Results

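The B7 family ligands are surface proteins with which antigen-presenting cells, B cells among them, raise or lower the response of T cells. The 6 members described here are Cd274 (PD-L1), Pdcd1lg2 (PD-L2), Cd80, Cd86, Icosl (ICOS ligand) and Cd276 (B7-H3). They were chosen by name, as the transcripts that the GENCODE mouse annotation assigns to these ligands, and are 6 of the 17023 genes of the deposited table. The counts of 15 transcripts were summed into these 6 genes.

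The samples came from TCL1-355 TKO, a murine leukemia cell line that models chronic lymphocytic leukemia (CLL). The line was derived from the Eμ-TCL1 mouse, whose transgene is driven in B cells, has an autoreactive B-cell receptor and carries disrupted CDKN2A and CDKN2B genes in both genotypes. In NFKBIE-ko cells, the gene of the NF-κB inhibitor IκBε had been cut by CRISPR/Cas9, whereas NFKBIE-wt cells had received Cas9 without a guide (mock). Each genotype was grown for 21 days in its own C57BL/6 mouse and then transplanted by intraperitoneal injection into 5 young adult C57BL/6 recipients, so that the propagation mouse and the genotype cannot be told apart. After 10 days, cells of the spleen and the peritoneal cavity (PC) were taken without purification, and non-leukemic host cells remained in them. Cells from the spleens of 3 mice per genotype were in addition kept in vitro for 2 weeks. Bulk RNA sequencing covered 6 groups in 22 samples: NFKBIE-wt and NFKBIE-ko PC (4 samples each), NFKBIE-wt and NFKBIE-ko spleen (4 each), and NFKBIE-wt and NFKBIE-ko in vitro (3 each).

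T cells need a second signal beside the antigen. CD80 and CD86 give it through the receptor CD28 and withdraw it through CTLA4, which binds the same ligands more tightly. PD-L1 and PD-L2 bind the inhibitory receptor PD-1 (Pdcd1), ICOS ligand binds ICOS on activated and follicular helper T cells, and B7-H3 is mostly described as inhibitory, through a receptor that is not settled. Activated B cells raise CD80 and CD86, PD-L1 is a classical target of interferon-γ signaling, and macrophages and dendritic cells carry most of these ligands too.

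The guide that defines the 2 genotypes is shown first. The stretches before the start of 2 ligand genes follow, the inhibitory Cd274 and the costimulatory Icosl. These were the members whose stretch held a match to a motif searched for. The comparisons below use RNA levels and not these stretches. The guide matched 1 site in the Nfkbie gene, in exon 2, at chr17:45869436-45869455 on the plus strand of GRCm39. Capitals mark the PAM in the guide's line. In the lines of Cd274 and Icosl, which hold the 250 bases before the first base of each gene's most abundant transcript (ENSMUST00000016640 and ENSMUST00000105393), capitals mark the one motif match found.
Nfkbie guide: agtgattcacgaagccccgtCGG
Cd274, chr19:29344279-29344528, plus strand, GRCm39: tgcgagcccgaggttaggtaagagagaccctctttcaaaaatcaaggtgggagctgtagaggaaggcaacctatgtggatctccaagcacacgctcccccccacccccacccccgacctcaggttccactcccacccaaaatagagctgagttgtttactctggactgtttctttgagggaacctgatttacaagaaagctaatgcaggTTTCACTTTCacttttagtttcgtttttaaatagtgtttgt
Icosl, chr10:77904886-77905135, plus strand, GRCm39: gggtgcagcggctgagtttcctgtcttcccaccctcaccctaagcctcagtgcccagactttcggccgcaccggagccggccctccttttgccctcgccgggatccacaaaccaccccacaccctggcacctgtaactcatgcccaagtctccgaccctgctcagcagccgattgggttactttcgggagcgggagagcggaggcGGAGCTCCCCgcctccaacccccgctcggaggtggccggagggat
The windows of all 6 members were searched on both strands for a κB motif, the palindromic GAS motif (TTCNNNGAA) and the core of the interferon-stimulated response element (GAAANNGAAA). Cd274 had 1 match to the interferon-stimulated core, whose first base lies at -41 from the transcript's start, on the reverse strand. Icosl had 1 κB match, whose first base lies at -45, also read on the reverse strand. The windows of Pdcd1lg2, Cd80, Cd86 and Cd276 held none of the 3 motifs. Of the 17023 windows of the same length, 7.64% held a κB match, 6.58% a GAS match and 3.38% a match to the interferon-stimulated core. These matches describe letters only, and binding was not measured here.

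Depth was even, at 24036763 to 26581304 estimated counts per sample. The 6 B-lineage genes (Cd79a, Cd79b, Ms4a1, Pax5, Cd5 and Ighm) together summed to 6337 to 11329 CPM (counts scaled to library size) and none was at 0 in any group. The sum was lower in NFKBIE-ko samples without overlap in each compartment, at 10913 to 11191 CPM in NFKBIE-wt and 8845 to 9222 CPM in NFKBIE-ko PC, 9088 to 9794 and 6337 to 7625 CPM in the spleen, and 8734 to 11329 and 7365 to 7796 CPM in vitro. Most of the sum was Ighm, with means of 8307.5 CPM in NFKBIE-wt PC and 5706 CPM in NFKBIE-ko PC. Gene by gene, 3 of the 6 rose and 2 fell in the PC, with a median log2 difference of 0.12. In the spleen 0 rose and 2 fell (median -0.18), and in vitro 0 rose and 0 fell (median -0.060). The part of these genes in the ligands' differences was not tested. Nfkbie itself, whose RNA need not fall after a small cut in exon 2, lay at 67.8 to 92.6 CPM in NFKBIE-wt PC and at 47.1 to 65.1 CPM in NFKBIE-ko PC. Its level fell by 0.56 on the log2 scale in the PC (SE 0.12, adjusted p = 0.00377), differed by 0.19 (SE 0.27, adjusted p = 0.730) in the spleen and by -0.93 (SE 0.33, adjusted p = 0.517) in vitro. Without the pair of libraries described next, Nfkbie differed by 0.43 (adjusted p = 0.294) and -1.23 (adjusted p = 0.0925). A pair of libraries went against their labels. The library labelled NFKBIE-wt spleen replicate 4 held 0.153 CPM of 10 granulocyte genes and 6.82 CPM of 9 erythroid genes, whereas the other NFKBIE-wt spleen libraries held 62.6 to 408 CPM and 284 to 2058 CPM. Replicate 3 of the samples labelled NFKBIE-wt in vitro held 205 CPM and 1430 CPM of the same genes, against 0.190 to 3.59 CPM and 11.7 to 25.1 CPM in the other cultures. Both were kept under their labels, and the ligands' differences that rest on them are given with and without them, whereas correlations and the order of the groups use all libraries unless stated.

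In the PC, loss of NFKBIE went with higher RNA of both PD-1 ligands, of both CD28 ligands and of ICOS ligand. Pdcd1lg2 rose most, by 7.15-fold, followed by Cd274 (3.19-fold), Icosl (2.69-fold), Cd86 (2.07-fold) and Cd80 (1.35-fold). All 5 members that passed the filter on low counts rose (adjusted p below 0.05), 4 of them by more than 1 on the log2 scale, where 22.5% of the 12642 genes tested rose and 9.97% rose by more than that. The median of the 5 was 1.43 on the log2 scale, against -0.0078 over all genes tested. In all 5, each NFKBIE-ko library lay above each NFKBIE-wt library, which held in the same direction for 21.8% of genes. The study had itself singled out Cd274 and Cd276 on samples of this series, as enriched in NFKBIE-ko spleen, so their values are not independent evidence.

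The ligands of PD-1 are given first. Cd274 stood at 25.9, 28.6, 26.4 and 30.8 CPM in the 4 NFKBIE-wt PC libraries and at 113, 112, 71.7 and 60.8 CPM in the 4 NFKBIE-ko PC libraries. The groups did not overlap, and NFKBIE-ko replicates 1 and 2 lay well above replicates 3 and 4. Its log2 fold change was 1.68 (SE 0.20, adjusted p = 0.000228). Pdcd1lg2 was low and even in NFKBIE-wt PC, at 3.42, 3.24, 3.397 and 3.65 CPM, and reached 28.1, 28.2, 20.6 and 21.6 CPM in NFKBIE-ko PC. The gap was far wider than the spread within either group, with a log2 fold change of 2.84 (SE 0.14, adjusted p = 4.47e-07).

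Cd80, Cd86 and Icosl, the costimulatory ligands, rose as well. Cd80 was at 33.1, 32.0, 35.5 and 35.9 CPM in NFKBIE-wt PC and at 48.5, 42.4, 49.5 and 44.6 CPM in NFKBIE-ko PC. Its groups were separate but close, and its log2 fold change was 0.43 (SE 0.077, adjusted p = 0.00109). Cd86 rose from 13.03, 10.6, 9.36 and 11.7 CPM to 25.3, 24.9, 21.3 and 21.4 CPM, a log2 fold change of 1.05 (SE 0.12, adjusted p = 7.94e-05). Icosl rose from 6.52, 6.24, 7.11 and 6.91 CPM to 22.4, 18.6, 15.7 and 15.7 CPM, a log2 fold change of 1.43 (SE 0.14, adjusted p = 2.01e-05).

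Cd276, whose receptor is not settled, was near the limit of detection in the PC, with 3, 5, 5 and 9 counts in the NFKBIE-wt and 22, 9, 19 and 15 counts in the NFKBIE-ko libraries. It did not pass the filter and was not tested there, and 3 of its 4 NFKBIE-ko libraries lay above all NFKBIE-wt libraries. Without that filter, and with DESeq2, all 6 members passed the threshold in the PC. Over all genes, 2858 of 16921 were higher without the filter and 3065 of 17023 with DESeq2.

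Host-cell marker genes also differed between the PC groups. The summed level of 13 macrophage genes was 636 to 1823 CPM in NFKBIE-wt PC and 3924 to 5739 CPM in NFKBIE-ko PC, 12 of the 13 rose, and none was at 0. Dendritic-cell genes summed to 15.5 to 44.6 CPM and 51.0 to 63.3 CPM, with 2 of 7 tested higher. Granulocyte genes went the other way, from 164 to 475 CPM in NFKBIE-wt to 31.7 to 48.2 CPM in NFKBIE-ko PC, and 6 of 8 tested fell. T-cell genes summed to 267 to 345 CPM and 401 to 475 CPM, with 6 of 12 higher and 2 lower. Most of this sum was Cd2 (means of 214 and 251 CPM) and Lck (48.2 and 153 CPM). In NFKBIE-ko cultures, where Cd8a and Cd8b1 were at 0, Cd2 was still at 38.7 CPM and Lck at 125 CPM. Which cells carried Cd2 and Lck was not tested. Among the NFKBIE-wt PC libraries, the macrophage sum varied from 636 CPM in replicate 2 to 1823 CPM in replicate 1. There, Pdcd1lg2 was at 3.24 and 3.42 CPM, Cd274 at 28.6 and 25.9 CPM and Cd80 at 32.0 and 33.1 CPM. Cd86 was at 10.6 and 13.03 CPM and Icosl at 6.24 and 6.52 CPM. The sum was 1111 and 1589 CPM in replicates 3 and 4, where Cd86 was at 9.36 and 11.7 CPM. In NFKBIE-ko PC, the macrophage sum was lowest in replicate 1 (3924 CPM) and highest in replicate 2 (5739 CPM). There, Cd274 was at 113 and 112 CPM, Pdcd1lg2 at 28.1 and 28.2 CPM and Cd80 at 48.5 and 42.4 CPM. Cd86 was at 25.3 and 24.9 CPM and Icosl at 22.4 and 18.6 CPM. Fewer cells of a type and less RNA per cell cannot be told apart in these bulk libraries, and the part of host cells in the PC differences was not tested.

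**Figure D1:**
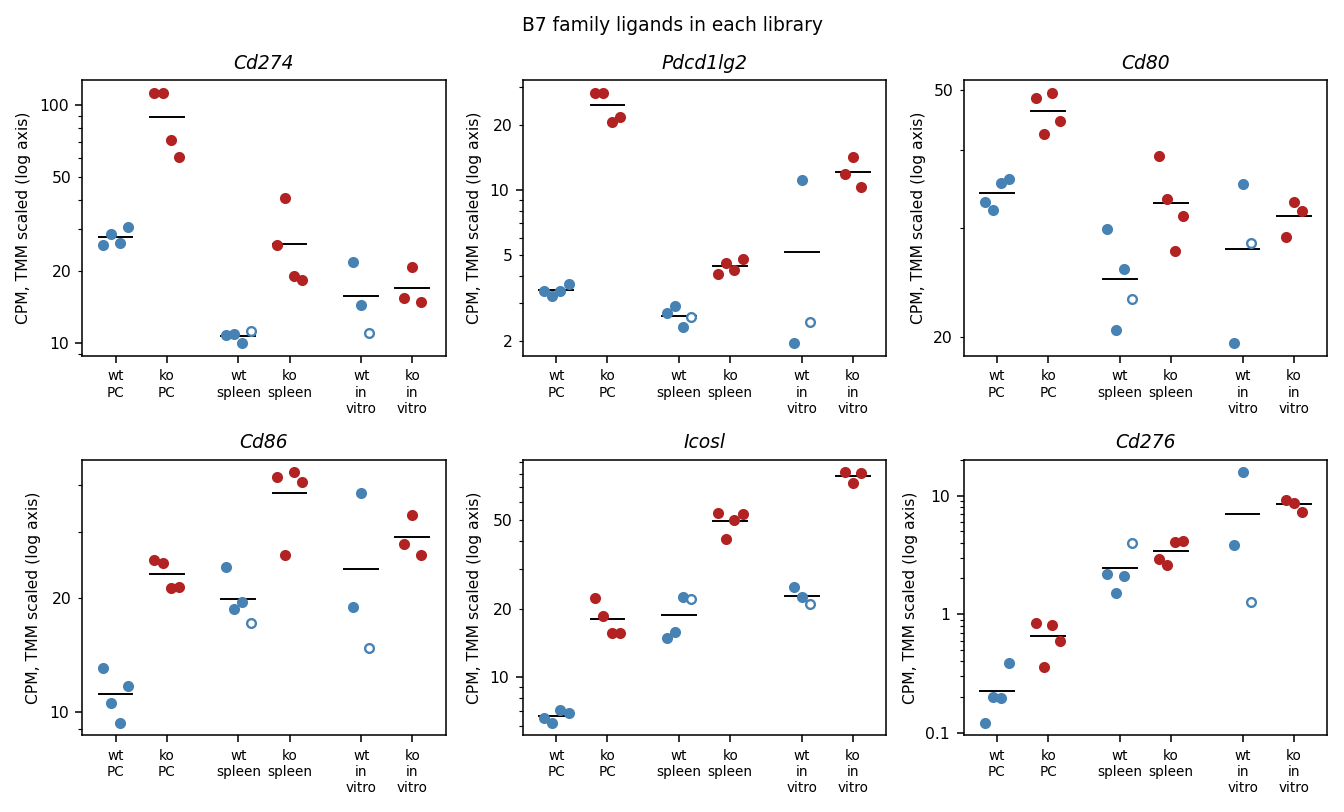
CPM of each ligand in each library on a log axis, one panel per gene, with NFKBIE-wt in blue, NFKBIE-ko in red, a black bar at each group's mean and open circles for replicate 4 of NFKBIE-wt spleen and replicate 3 of NFKBIE-wt in vitro. In the PC, the red points of Cd274 (60.8 to 113 CPM) lie above all blue points (25.9 to 30.8 CPM), and the Icosl points separate by genotype in all 3 compartments.

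In the spleen, 3 of the 6 members rose in NFKBIE-ko samples, where 2.3% of the 12221 genes tested rose: Icosl (2.57-fold), Cd274 (2.39-fold) and Cd86 (1.88-fold). Icosl and Cd274 rose by more than 1 on the log2 scale, as 1.4% of all genes did. The median log2 fold change of the 6 was 0.82, against -0.0075 over all genes. Pdcd1lg2, Cd80 and Cd276 did not pass the test. The NFKBIE-ko libraries lay above all NFKBIE-wt libraries in 4 members, Pdcd1lg2 being the fourth, against 8.71% of all genes. Without NFKBIE-wt replicate 4, they did so for Cd276 as well (1.51 to 2.17 CPM against 2.58 to 4.15 CPM). The share of all genes was not counted without that library.

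Icosl was at 14.9, 15.8, 22.6 and 22.2 CPM in NFKBIE-wt spleen and at 53.7, 40.8, 49.9 and 52.8 CPM in NFKBIE-ko spleen. Its groups were far apart, with a log2 fold change of 1.36 (SE 0.18, adjusted p = 0.00513) with all libraries and 1.46 (adjusted p = 0.00202) without NFKBIE-wt spleen replicate 4. Cd274 was at 10.7, 10.9, 9.95 and 11.2 CPM in NFKBIE-wt spleen and at 25.7, 40.6, 19.1 and 18.4 CPM in NFKBIE-ko spleen. The NFKBIE-wt libraries were even and NFKBIE-ko replicate 2 was the highest of the 4, which gave a log2 fold change of 1.26 (SE 0.25, adjusted p = 0.0240), or 1.29 (adjusted p = 0.0179) without NFKBIE-wt replicate 4. Cd86 was at 24.2, 18.8, 19.6 and 17.2 CPM in NFKBIE-wt spleen and at 42.2, 26.0, 43.3 and 40.7 CPM in NFKBIE-ko spleen. Here NFKBIE-ko replicate 2 was the lowest of its group and still above every NFKBIE-wt library. Its log2 fold change was 0.91 (SE 0.18, adjusted p = 0.0264), or 0.85 (adjusted p = 0.0241) without NFKBIE-wt replicate 4. Leaving out NFKBIE-wt spleen replicate 1, 2 or 3 or NFKBIE-ko spleen replicate 1 raised the adjusted p of Cd274 above 0.05 (adjusted p = 0.0706, 0.0536, 0.0788 and 0.0778), and leaving out NFKBIE-wt replicate 2 or 3 or NFKBIE-ko replicate 1, 3 or 4 did so for Cd86 (adjusted p = 0.0577, 0.0796, 0.0927, 0.0883 and 0.0856).

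The other 3 ligands differed less in the spleen. Pdcd1lg2 was at 2.70, 2.89, 2.31 and 2.57 CPM in NFKBIE-wt and at 4.08, 4.57, 4.26 and 4.81 CPM in NFKBIE-ko spleen, a log2 difference of 0.73 (SE 0.21, adjusted p = 0.0792). The groups did not overlap, DESeq2 gave an adjusted p of 0.00486 for the same samples, and without NFKBIE-wt replicate 4 the edgeR value was 0.74 (adjusted p = 0.0541). Cd80 was at 20.5 to 29.9 CPM and 27.5 to 39.1 CPM, a log2 difference of 0.38 (SE 0.16, adjusted p = 0.185), or 0.36 (adjusted p = 0.216) without that library. Cd276 was at 1.51 to 3.99 CPM and 2.58 to 4.15 CPM, a log2 difference of 0.46 (SE 0.36, adjusted p = 0.476), or 0.82 (adjusted p = 0.101) without it. The study had reported Cd276 as enriched in NFKBIE-ko spleen, from DESeq2 tests of transcripts. Per gene, it did not pass here under any of 16 alternatives.

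Host-cell genes also moved with the genotype in the spleen. Macrophage genes summed to 39.5 to 111 CPM in NFKBIE-wt and 135 to 382 CPM in NFKBIE-ko spleen, with 0 of 12 tested past the edgeR threshold and 6 higher at an unadjusted p below 0.05. Genes of cytotoxic lymphocytes summed to 3.07 to 17.3 CPM and 59.0 to 140 CPM, with 4 of 9 tested higher. Without NFKBIE-wt replicate 4, 3 of 13 macrophage genes and 6 of 9 cytotoxic genes were higher. NFKBIE-ko spleen replicate 2, with the highest Cd274 and the lowest Cd86 and Icosl levels of its group, had the lowest macrophage sum of its group (135 CPM) and 59.7 CPM of erythroid genes, against 636 to 915 CPM in the other NFKBIE-ko spleen libraries. The part of these cells in the spleen differences was not tested.

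**Figure D2:**
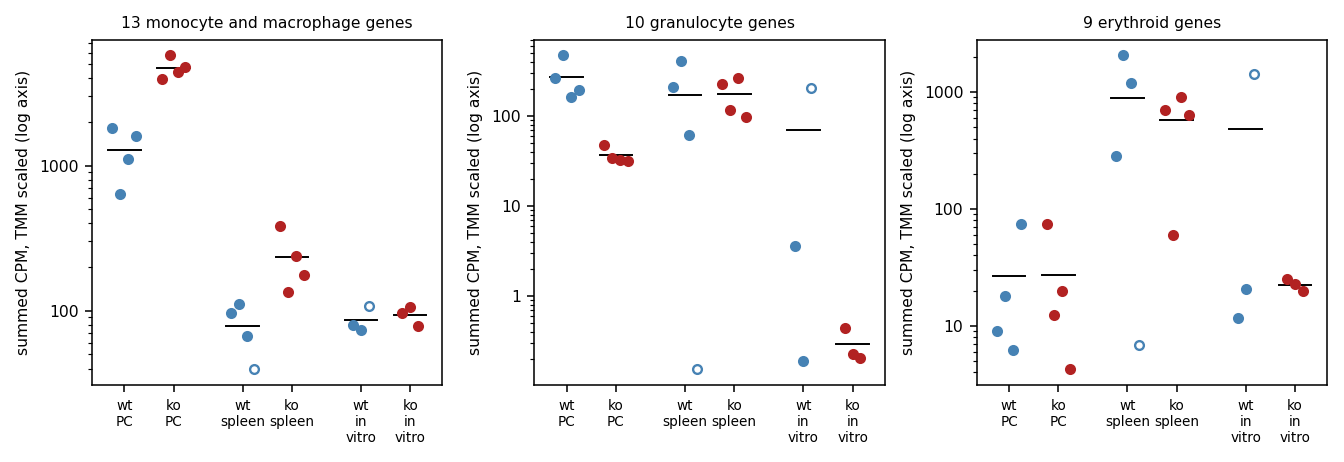
Summed CPM of 13 macrophage, 10 granulocyte and 9 erythroid genes in each library on a log axis, by group, with NFKBIE-wt in blue, NFKBIE-ko in red, a black bar at each mean and open circles for the pair of libraries that went against their labels. Macrophage genes reached 3924 to 5739 CPM in NFKBIE-ko PC and stayed at 79.0 to 106 CPM in NFKBIE-ko cultures, and replicate 4 of the labelled NFKBIE-wt spleen samples and replicate 3 of the NFKBIE-wt cultures lie near the values of the other compartment for granulocyte and erythroid genes.

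In vitro, where recipient tissue was no longer around the cells, Icosl was the one member that rose, by 3.395-fold. Only 4 of the 11722 genes tested rose (0.0341%) and 0 fell by edgeR, with 405 higher and 719 lower at an unadjusted p below 0.05 and 95 higher and 135 lower by DESeq2. The edgeR counts were 316 higher and 469 lower without replicate 2 of NFKBIE-wt in vitro, 7 and 2 without replicate 3, and 0 and 0 without replicate 1 or any one NFKBIE-ko culture. The fit without replicate 2 kept replicate 3, which went against its label. Icosl was at 25.03, 22.5 and 21.1 CPM in NFKBIE-wt and at 81.2, 72.5 and 80.6 CPM in NFKBIE-ko cultures. Its groups were separate, as those of 10.1% of genes were in this direction, and its log2 fold change was 1.76 (SE 0.10, adjusted p = 0.0167), or 1.72 (adjusted p = 0.0226) without NFKBIE-wt in vitro replicate 3. In these NFKBIE-ko cultures, the macrophage genes C1qa, C1qc, Fcgr1 and Cd14 were at 0 in every library, 4 of the 13 macrophage genes. The others were present, Ly6c2 with means of 21.1 CPM in NFKBIE-wt cultures against 50.7 CPM here, and Adgre1 with 15.4 against 24.1 CPM. The macrophage sum ran from 79.0 to 106 CPM, against 73.2 to 108 CPM in NFKBIE-wt cultures, and 0 of 7 tested genes passed by edgeR, with 1 higher at an unadjusted p below 0.05. The dendritic-cell genes summed to 19.3 to 21.4 CPM, against 10.3 to 13.7 CPM in NFKBIE-wt cultures. Of the dendritic-cell genes, Clec9a, Cd209a and Clec10a were at 0 in the NFKBIE-ko cultures, and the part of the other macrophage and dendritic-cell genes in the Icosl difference was not tested. Leaving out NFKBIE-wt in vitro replicate 1 or NFKBIE-ko in vitro replicate 1, 2 or 3 raised the adjusted p of Icosl above 0.05 (adjusted p = 0.0763, 0.291, 0.0934 and 0.171), with log2 fold changes of 1.74 to 1.83.

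The other ligands did not pass the test in vitro. NFKBIE-wt replicate 2 lay above replicates 1 and 3 for Pdcd1lg2, Cd276, Cd86 and Cd80, and not for Cd274. Replicate 3 went against its label. Fits without replicate 2, here and below, keep replicates 1 and 3 as the NFKBIE-wt cultures. Pdcd1lg2 was at 1.95, 11.1 and 2.44 CPM in NFKBIE-wt and at 11.8, 14.2 and 10.3 CPM in NFKBIE-ko cultures, a log2 difference of 1.23 (SE 0.67, adjusted p = 0.543). NFKBIE-wt replicate 2 lay with the NFKBIE-ko libraries, and without it the log2 difference was 2.45 (adjusted p = 0.0223), whereas without NFKBIE-wt replicate 3 it was 0.89 (adjusted p = 0.689). Cd276 showed the same high library, at 3.83, 15.7 and 1.26 CPM in NFKBIE-wt and 9.21, 8.72 and 7.33 CPM in NFKBIE-ko cultures, and its log2 difference was 0.28 (SE 0.81, adjusted p = 0.892), or -0.21 (adjusted p = 0.919) without NFKBIE-wt replicate 3. Cd86 was at 18.98, 38.1 and 14.8 CPM and at 28.0, 33.2 and 26.1 CPM, a log2 difference of 0.27 (SE 0.35, adjusted p = 0.741), or 0.030 (adjusted p = 0.985) without NFKBIE-wt replicate 3 and 0.78 (adjusted p = 0.0610) without NFKBIE-wt replicate 2. Cd274 was at 21.9, 14.5 and 10.996 CPM and at 15.5, 20.7 and 14.9 CPM, a log2 difference of 0.10 (SE 0.28, adjusted p = 0.879), or -0.095 (adjusted p = 0.917) without NFKBIE-wt replicate 3. Cd80 was at 19.6 to 35.3 CPM and 29.0 to 33.04 CPM, a log2 difference of 0.17 (SE 0.22, adjusted p = 0.744), or 0.19 (adjusted p = 0.816) without NFKBIE-wt replicate 3. The median over the 6 members was 0.28 on the log2 scale, or 0.11 without that library, against -0.021 over all genes.

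**Figure D3:**
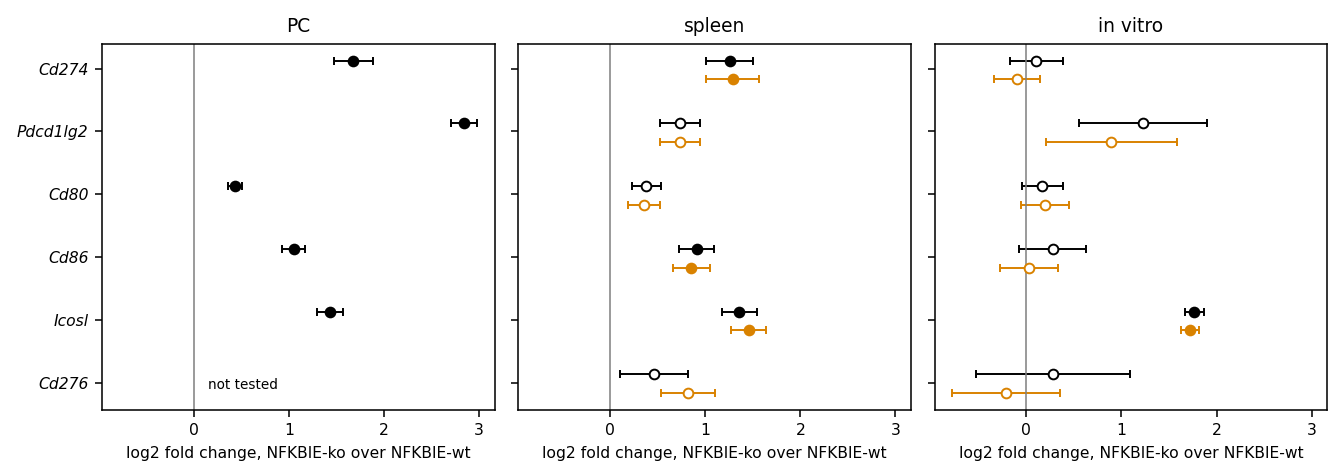
Log2 fold change (NFKBIE-ko over NFKBIE-wt) ± SE of each ligand in the PC, spleen and in vitro, in black with all libraries and in orange without NFKBIE-wt spleen replicate 4 or replicate 3 of NFKBIE-wt in vitro, with filled symbols where the adjusted p was below 0.05. Icosl is filled in all 3 compartments (1.43, 1.36 and 1.76), Cd274 in the PC and the spleen (1.68 and 1.26) and Pdcd1lg2 in the PC (2.84).

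Whether the genotype effect itself differed between compartments was tested for the 6 members and the 3 pairs of compartments in one fit of all 22 samples. For Pdcd1lg2, the effect was larger in the PC than in the spleen by 2.11 on the log2 scale (SE 0.50, adjusted p = 0.0215), a call made for 2.75% of the 13537 genes tested in this direction. Without both libraries that went against their labels, this difference was 2.09 (adjusted p = 0.0104). For Cd274, the effect was larger in the PC than in vitro by 1.58 (SE 0.38, adjusted p = 0.0283), as for 3.83% of genes, and by 1.77 (adjusted p = 0.0128) without both libraries. That call was lost without replicate 2 or 3 of NFKBIE-wt PC, replicate 2 of NFKBIE-ko PC or NFKBIE-ko in vitro replicate 1, 2 or 3 (adjusted p between 0.0507 and 0.0844). The effect on Pdcd1lg2 was larger in the PC than in vitro by 1.62 (SE 0.53, adjusted p = 0.0800), which became 1.95 (adjusted p = 0.0272) without both libraries and 0.40 (adjusted p = 0.331) without replicate 2 of NFKBIE-wt in vitro. It was 2.01 (adjusted p = 0.0167) without replicate 1 of NFKBIE-wt in vitro. For Icosl, the effects differed by 0.075 between PC and spleen (SE 0.20, adjusted p = 0.889), by -0.33 between PC and in vitro (SE 0.22, adjusted p = 0.459) and by -0.40 between spleen and in vitro (SE 0.22, adjusted p = 0.390). Between spleen and in vitro, 0 of the 6 members passed by edgeR, as 0.236% of genes did with a higher and 0.207% with a lower effect, or by DESeq2, and 1, Cd274, did so at an unadjusted p below 0.05 (log2 difference 1.16, SE 0.38, adjusted p = 0.135). Without NFKBIE-wt in vitro replicate 2, the effect on Pdcd1lg2 in the spleen was lower than that in vitro by 1.71 (log2 difference -1.71, adjusted p = 0.00199). That fit kept both libraries that went against their labels.

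The compartment set the ligands apart in opposite directions. Cd274 and Cd80 were higher in the PC than in the spleen in both genotypes, whereas Cd86, Icosl and Cd276 were lower there. In NFKBIE-wt samples, 2 members were higher and 3 lower in the PC, where 15.8% and 19.7% of the 13537 genes tested were, and in NFKBIE-ko samples 3 were higher and 3 lower, against 25% and 26.1% of genes. Cd274 differed by 1.37 on the log2 scale in NFKBIE-wt (SE 0.26, adjusted p = 0.000416) and by 1.79 in NFKBIE-ko samples (SE 0.25, adjusted p = 1.06e-05). Pdcd1lg2 differed by 0.37 in NFKBIE-wt (SE 0.36, adjusted p = 0.447) and by 2.48 in NFKBIE-ko samples (SE 0.36, adjusted p = 1.33e-05). Cd80 was higher in the PC by 0.44 (SE 0.14, adjusted p = 0.0236) and 0.50 (SE 0.14, adjusted p = 0.00726), the former call being lost without replicate 3 or 4 of NFKBIE-wt PC or replicate 2 or 4 of NFKBIE-wt spleen (adjusted p = 0.0522, 0.0531, 0.0634 and 0.0541). Icosl was lower in the PC, with log2 differences of -1.52 (SE 0.15, adjusted p = 6.01e-07) and -1.44 (SE 0.15, adjusted p = 2.15e-07). Cd86 differed by -0.85 (SE 0.22, adjusted p = 0.00610) and -0.71 (SE 0.22, adjusted p = 0.0116), and Cd276 by -3.42 (SE 0.61, adjusted p = 0.000260) and -2.38 (SE 0.55, adjusted p = 0.00135). Without both libraries that went against their labels, the same 5 members passed in NFKBIE-wt samples, at 1.41 for Cd274, 0.43 for Cd80 (adjusted p = 0.0451), -0.90 for Cd86, -1.41 for Icosl and -3.06 for Cd276, and Pdcd1lg2 differed by 0.38 (adjusted p = 0.421).

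Cultures were next set against each tissue. Between NFKBIE-ko spleen and NFKBIE-ko cultures, 2 members were lower in the spleen, where 13.4% of genes were, and 0 were higher, where 16.9% were. Pdcd1lg2 differed by -1.49 (SE 0.37, adjusted p = 0.00624) and Icosl by -0.70 on the log2 scale (SE 0.15, adjusted p = 0.00310). Cd276 differed by -1.33 (SE 0.54, adjusted p = 0.0685), which without both libraries became -1.29 (adjusted p = 0.00946). In NFKBIE-wt samples, 0 of 6 members, and 0 of 13537 genes in either direction (0%), passed by edgeR between spleen and cultures. At an unadjusted p below 0.05, 3 members and 347 higher and 712 lower genes did, and by DESeq2 1 gene was higher and 20 lower, with 0 members among them. Without both libraries that went against their labels, 2029 genes were higher and 1580 lower, and Pdcd1lg2 (-1.31, adjusted p = 0.0219) and Cd276 (-2.34, adjusted p = 0.000805) were lower in the spleen. With both kept and replicate 2 of NFKBIE-wt in vitro left out instead, Pdcd1lg2 differed by 0.23 (adjusted p = 0.893) and Cd276 by -0.088 (adjusted p = 0.990).

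Between the PC and cultures, Icosl was lower in the PC by -1.81 in NFKBIE-wt (SE 0.16, adjusted p = 3.83e-07) and by -2.14 in NFKBIE-ko samples (SE 0.16, adjusted p = 1.29e-08). Cd276 was lower as well, by -4.94 (SE 0.65, adjusted p = 1.66e-05) and -3.71 (SE 0.59, adjusted p = 5.03e-05). In NFKBIE-ko samples, 3 members were higher in the PC, where 24.1% of genes were, and 2 lower, where 23.9% were. The higher ones were Cd274 (2.36, SE 0.29, adjusted p = 3.14e-06), Pdcd1lg2 (0.99, SE 0.37, adjusted p = 0.0353) and Cd80 (0.53, SE 0.16, adjusted p = 0.00917). The call for Pdcd1lg2 was lost without replicate 1 or 2 of NFKBIE-ko PC or any one NFKBIE-ko culture (adjusted p between 0.0521 and 0.118). In NFKBIE-wt samples 1 member was higher, against 14.4% of genes, and 3 were lower, against 19.7%. Cd274 was the higher one, by 0.78 (SE 0.27, adjusted p = 0.0344), but by 0.62 (adjusted p = 0.0995) without both libraries that went against their labels, and the call was also lost without replicate 2 or 4 of NFKBIE-wt PC or replicate 2 or 3 of NFKBIE-wt in vitro (adjusted p = 0.0584, 0.0704, 0.106 and 0.133). Cd86 was among the lower ones, by -1.14 (SE 0.24, adjusted p = 0.00140). Without both libraries, Cd86 differed by -1.35 (adjusted p = 0.000115), Icosl by -1.82 (adjusted p = 1.49e-07) and Cd276 by -5.40 (adjusted p = 1.37e-07). For Pdcd1lg2, whose difference was -0.63 (SE 0.37, adjusted p = 0.205) there, NFKBIE-wt in vitro replicate 2 decided the direction, and without it the difference was 0.59 (adjusted p = 0.0199), whereas it was -1.02 (adjusted p = 0.0315) without replicate 1 and -0.97 (adjusted p = 0.0415) without replicate 3.

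Ordered by their mean CPM, the groups formed a different ladder for each ligand. For Cd274 it ran from NFKBIE-wt spleen (10.7 CPM) through NFKBIE-wt in vitro (15.8), NFKBIE-ko in vitro (17.1), NFKBIE-ko spleen (26.0) and NFKBIE-wt PC (27.9) to NFKBIE-ko PC (89.4 CPM), and only the last step had ranges that did not overlap. For Pdcd1lg2, the ladder ran from NFKBIE-wt spleen (2.62 CPM) through NFKBIE-wt PC (3.43), NFKBIE-ko spleen (4.43), NFKBIE-wt in vitro (5.18) and NFKBIE-ko in vitro (12.1) to NFKBIE-ko PC (24.6 CPM), with overlap on both sides of NFKBIE-wt in vitro and at no other step. Cd80 went from NFKBIE-wt spleen (24.8 CPM) to NFKBIE-ko PC (46.3 CPM) through NFKBIE-wt in vitro (27.7), NFKBIE-ko in vitro (31.3), NFKBIE-ko spleen (32.8) and NFKBIE-wt PC (34.1), and again only the last step had no overlap. Cd86 went from NFKBIE-wt PC (11.2 CPM) through NFKBIE-wt spleen (19.9), NFKBIE-ko PC (23.2), NFKBIE-wt in vitro (23.95) and NFKBIE-ko in vitro (29.1) to NFKBIE-ko spleen (38.1 CPM), with no overlap at the first step only. Icosl went from NFKBIE-wt PC (6.69 CPM) through NFKBIE-ko PC (18.1), NFKBIE-wt spleen (18.9), NFKBIE-wt in vitro (22.9) and NFKBIE-ko spleen (49.3) to NFKBIE-ko in vitro (78.1 CPM). Its neighbours NFKBIE-ko PC, NFKBIE-wt spleen and NFKBIE-wt in vitro overlapped and the other 3 steps did not. Cd276 went from NFKBIE-wt PC (0.228 CPM) through NFKBIE-ko PC (0.653), NFKBIE-wt spleen (2.44), NFKBIE-ko spleen (3.43) and NFKBIE-wt in vitro (6.94) to NFKBIE-ko in vitro (8.42 CPM), with a gap only between the PC and the spleen. Without the libraries that went against their labels, the NFKBIE-wt in vitro mean moved above the NFKBIE-ko in vitro mean for Cd274 (18.2 CPM) and Cd276 (9.78 CPM). More steps then had no overlap. For Cd274, NFKBIE-wt spleen (9.95 to 10.9 CPM) lay below NFKBIE-ko in vitro (14.9 to 20.7 CPM). For Cd276, NFKBIE-wt spleen (1.51 to 2.17 CPM) lay below NFKBIE-ko spleen (2.58 to 4.15 CPM), and that group below NFKBIE-ko in vitro (7.33 to 9.21 CPM).

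Per length, as TPM (counts scaled to transcript length and library size), the levels of the 6 ligands can be set against each other. Their summed level was 49.7 ± 2.85 TPM in NFKBIE-wt PC and 119 ± 23.4 TPM in NFKBIE-ko PC (SD, n = 4), 54.5 ± 8.64 TPM and 101.0 ± 10.1 TPM in the spleen (SD, n = 4), and 72.9 ± 20.3 TPM and 128 ± 2.37 TPM in vitro (SD, n = 3). Cd80 was the most abundant ligand in NFKBIE-wt PC, at 47.1% of the summed TPM, and held 28.2% in NFKBIE-ko PC, where Cd274 held 31.9% after 23.9% in NFKBIE-wt PC. Pdcd1lg2 went from 5.64% to 17.2% of the summed TPM in the PC. In NFKBIE-ko cultures Icosl led with 44.6%, after 23.997% in NFKBIE-wt cultures, and Cd274 held 6.44%. In the spleen, Cd80 held 34.4% in NFKBIE-wt and 24.96% in NFKBIE-ko samples, Cd86 25.6% and 26.0%, and Icosl 24.02% and 31.8%. Without the libraries that went against their labels, the mean sum was 53.1 TPM in NFKBIE-wt spleen and 81.3 TPM in NFKBIE-wt cultures, and Icosl held 22.5% in both. Cd276 held between 0.215% and 4.54% of the summed TPM in every group.

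**Figure D4:**
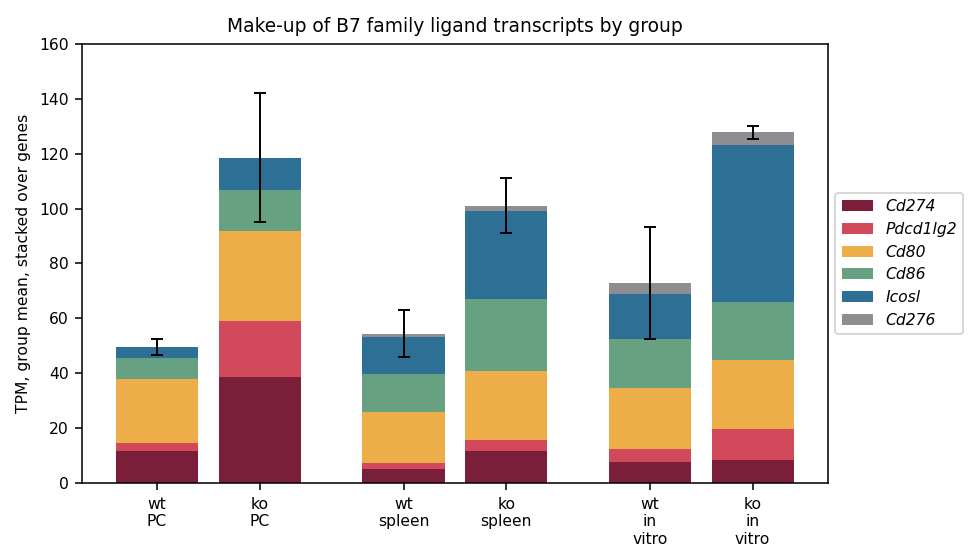
Mean TPM of the 6 ligands stacked by group, with the SD of the summed TPM as error bar. The sum goes from 49.7 to 119 TPM in the PC, 54.5 to 101.0 TPM in the spleen and 72.9 to 128 TPM in vitro from NFKBIE-wt to NFKBIE-ko, with Cd274 and Pdcd1lg2 taking a larger part in NFKBIE-ko PC and Icosl in NFKBIE-ko cultures.

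The deposited table is per transcript and held 15 of the 38 transcripts that GENCODE lists for the 6 genes. Cd274 was counted on a single transcript, ENSMUST00000016640 (chr19:29344529-29365495, plus strand, 7 exons, 3948 bases), and Cd86 almost entirely on ENSMUST00000089620 (chr16:36424044-36486439, minus strand, 96.7% to 98.5% of the gene's counts in the group means). Pdcd1lg2 was counted mostly on ENSMUST00000235164 (chr19:29399459-29448882, 90.8% to 100% in the group means), which is not the transcript GENCODE marks as canonical. The canonical ENSMUST00000112576, which starts upstream, had a mean of 0.580 CPM over the 22 samples and was at 0 in all NFKBIE-wt spleen and NFKBIE-wt in vitro libraries. Cd80 was split between ENSMUST00000231716 (57.3% to 65.9%) and the shorter canonical ENSMUST00000099816 (33.8% to 40.9%). Cd276 was counted mainly on ENSMUST00000039788 (chr9:58431412-58448224, minus strand), also not the canonical one. The other 5 transcripts had means under 0.5 CPM. Salmon divides reads that fit several transcripts of a gene by a model, so the split between them is less certain than the gene's sum.

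In the PC, 6 of the 8 member transcripts tested rose, where 7.89% of the 34098 transcripts tested did. Both main Cd80 transcripts rose, ENSMUST00000231716 by 0.41 (SE 0.098, adjusted p = 0.0292) and ENSMUST00000099816 by 0.61 on the log2 scale (SE 0.11, adjusted p = 0.00940). ENSMUST00000016640 of Cd274 rose by 1.73 (adjusted p = 0.00179), ENSMUST00000235164 of Pdcd1lg2 by 2.81 (adjusted p = 5.45e-05), ENSMUST00000089620 of Cd86 by 1.12 (adjusted p = 0.00177) and ENSMUST00000105393 of Icosl by 1.39 (adjusted p = 0.000996). ENSMUST00000112576 of Pdcd1lg2 went from a mean of 0.109 to 2.10 CPM (adjusted p = 0.0698). In the spleen, 1 of 10 rose, against 0.153% of transcripts: ENSMUST00000105393 of Icosl, by 1.69 (SE 0.22, adjusted p = 0.0289), or 1.71 (adjusted p = 0.0396) without NFKBIE-wt replicate 4. In vitro, 0 of 12 passed by edgeR, as did 0% of transcripts in either direction. DESeq2, whose calls over all transcripts were not counted, called 3. At an unadjusted p below 0.05, 4 were higher, all of them transcripts of Icosl. Of the 33361 transcripts tested, 678 were higher and 1096 lower at that threshold.

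Icosl also carried 2 transcripts with a retained intron. The protein-coding ENSMUST00000105393 (chr10:77905136-77915360) had means of 5.58 and 14.8 CPM in NFKBIE-wt and NFKBIE-ko PC, 13.5 and 44.1 CPM in the spleen and 15.8 and 54.9 CPM in vitro. The retained-intron transcript ENSMUST00000219633 had means of 0.685 and 2.72 CPM in the PC (adjusted p = 0.0901), 3.94 and 3.95 CPM in the spleen (log2 difference -0.014, adjusted p = 0.997) and 5.49 and 17.8 CPM in vitro (log2 difference 1.68, adjusted p = 0.346). The second, ENSMUST00000217675, was at a mean of 1.18 CPM over the 22 samples. In the spleen, ENSMUST00000219633 was at 3.67, 2.80, 3.57 and 5.74 CPM in NFKBIE-wt and at 6.19, 5.69, 0.534 and 3.37 CPM in NFKBIE-ko libraries, so the groups overlapped while those of the coding transcript did not. Together the retained-intron transcripts took 24.7% of Icosl counts in NFKBIE-wt spleen (range 17.9% to 32.0%) and 9.43% in NFKBIE-ko spleen (range 1.56% to 16.04%), or 22.2% in NFKBIE-wt spleen without replicate 4, but 29.4% and 28.7% in vitro (30.9% in NFKBIE-wt without replicate 3) and 12.4% and 18.6% in the PC. This share was not tested.

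**Figure D5:**
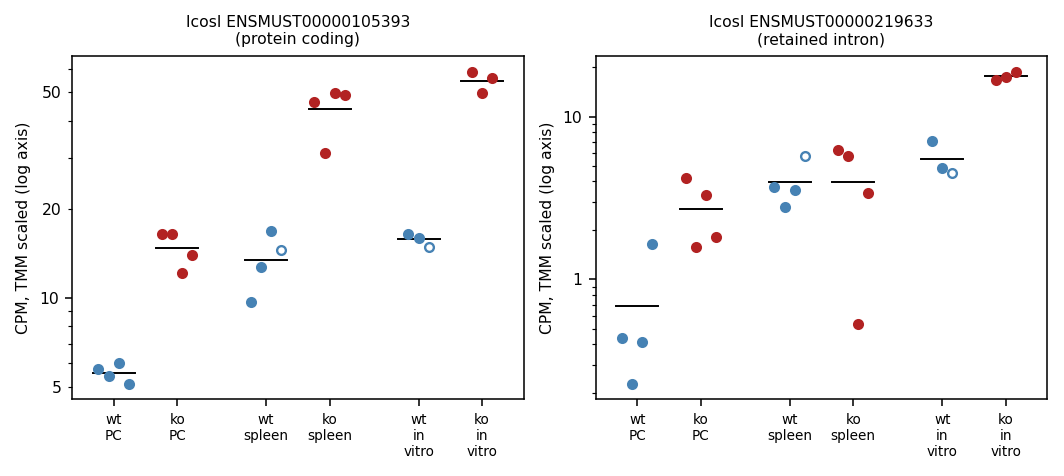
CPM of the protein-coding Icosl transcript ENSMUST00000105393 and the retained-intron transcript ENSMUST00000219633 in each library on log axes, by group, with NFKBIE-wt in blue, NFKBIE-ko in red, a black bar at each mean and open circles for the pair of libraries that went against their labels. In the spleen the coding transcript separates by genotype (means 13.5 and 44.1 CPM) while the retained-intron transcript does not (3.94 and 3.95 CPM), and in vitro both lie higher in NFKBIE-ko samples.

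The receptors of these ligands, most of them known from T cells, changed in the PC. Of Cd28, Ctla4, Icos, Pdcd1 and Rgmb (a PD-L2 binding protein), 3 rose and 1 fell. Cd28 rose by 2.13 on the log2 scale (SE 0.28, adjusted p = 0.000181) from a mean of 0.379 to 1.69 CPM, Pdcd1 by 1.46 (SE 0.24, adjusted p = 0.000799) from 1.57 to 4.35 CPM, and Rgmb by 1.74 (SE 0.45, adjusted p = 0.00933) from 0.544 to 1.84 CPM. Ctla4 fell by 2.50 (SE 0.24, adjusted p = 4.9e-05), from 53.5 to 9.49 CPM. In the spleen, 0 of 4 tested passed by edgeR and 1, Ctla4, was lower at an unadjusted p below 0.05 (means of 34.2 CPM in NFKBIE-wt and 9.71 CPM in NFKBIE-ko spleen, adjusted p = 0.125). Without NFKBIE-wt spleen replicate 4, Ctla4 fell by 2.20 there (SE 0.30, adjusted p = 0.00255). In vitro, 0 of 2 tested passed and both were lower at an unadjusted p below 0.05, Ctla4 with means of 13.3 and 0.618 CPM (adjusted p = 0.506) and Pdcd1 with means of 12.3 and 5.61 CPM (adjusted p = 0.517). Cd28, Icos and Rgmb, like the T-cell genes Cd8a and Cd8b1, were at 0 in every NFKBIE-ko culture. Which cells carried Ctla4 and Pdcd1 was not tested. Pdcd1 was among the genes the study had singled out on these samples. Cytotoxic-lymphocyte genes summed to 19.6 to 48.9 CPM in NFKBIE-wt and 48.2 to 87.8 CPM in NFKBIE-ko PC.

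Genes that act on PD-L1 rose in part. Of 8 such genes, which encode interferon-γ, its receptor chains, its kinases JAK1 and JAK2, the factor IRF1, and the proteins CMTM4 and CMTM6 that keep PD-L1 at the surface, 5 of 7 tested rose in the PC. They were Cmtm4 (1.201), Ifngr2 (0.60), Jak2 (0.51), Ifngr1 (0.51) and Cmtm6 (0.26 on the log2 scale), with a list median of 0.51. In the spleen, 1 of 8 rose, Irf1, an interferon-induced transcription factor, by 1.41 (SE 0.15, adjusted p = 0.00218) from 73.5 to 198 CPM. Without NFKBIE-wt replicate 4, Ifng (2.32, adjusted p = 0.0185) and Ifngr2 rose as well, 3 of 8 in all. The list's median in the spleen was 0.21. In vitro, 0 of 7 passed by edgeR and 0 had an unadjusted p below 0.05.

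Other ligands and adhesion molecules of antigen presentation were followed as a list of 12 genes. In the PC, 5 of 11 tested rose: Nectin2 (1.83), Cd40 (1.06), Icam1 (0.78), Tnfrsf14 (0.75) and Lgals9 (0.42 on the log2 scale). In the spleen, 3 of 11 rose: Tnfsf4, which encodes OX40 ligand (2.27), Icam1 (1.43) and Cd40, the receptor for T-cell help (1.36). Without NFKBIE-wt replicate 4, 4 of 12 rose, Tnfsf9 being the fourth, and Cd40 rose by 1.72 and Icam1 by 1.79. In vitro, 0 of 10 passed by edgeR and 0 had an unadjusted p below 0.05. Among 4 further B7-related genes in the table, Vsir (VISTA), the single one tested in the PC, rose by 1.17 (SE 0.17, adjusted p = 0.000442) from 58.8 to 133 CPM, while 0 of 2 passed in the spleen (0 at an unadjusted p below 0.05) and 0 of 2 in vitro (1, Vsir, at an unadjusted p below 0.05).

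Across the 22 samples, the members fell into a pair of patterns on the log2 CPM scale. Cd274, Pdcd1lg2 and Cd80 went together (Pearson's r of 0.70 to 0.78 between them), and Cd86, Icosl and Cd276 did so (0.71 to 0.81). Between the sets, r ran from -0.50 (Cd274 with Cd276) to 0.36 (Pdcd1lg2 with Cd86). These values describe samples that share 6 groups, 3 compartments and their host cells, and the points are not independent. By the same measure, the protein-coding genes most like Cd274 were Arap1 (0.94), Stat3 (0.93) and Zbp1 (0.93), and those most like Icosl were Aire (0.97), Sting1 (0.94) and Rgs3 (0.92). Pdcd1lg2 was closest to Anxa6 (0.96), Stx7 (0.94) and Cotl1 (0.94), Cd80 to Sirpa (0.91), Tle3 (0.90) and Pira12 (0.90), Cd86 to Mlf2 (0.94), Stx11 (0.93) and Ticam2 (0.91), and Cd276 to Ppp2r1b (0.97), Naa40 (0.97) and Bub3 (0.97).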

How the data were processed

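RNA was sequenced as TruSeq mRNA libraries on an Illumina NovaSeq. The authors quantified reads on GRCm39 transcripts with Salmon v1.8 and deposited estimated counts per transcript (62492 transcripts, 69.5% of values not whole). Here, 62147 transcripts were matched to GENCODE vM39 and summed into 17023 genes (0.619% of counts unmatched), then rounded. Genotypes were compared within each compartment with edgeR 4.0.16 (R 4.3.3; TMM, filterByExpr, robust quasi-likelihood test, Benjamini-Hochberg), and compartments and differences of effects in a fit of all 22 samples. "Rose" or "fell" means an adjusted p below 0.05. CPM are TMM-scaled. Alternatives were other size factors, filters, DESeq2 1.42.0, coding transcripts, left-out libraries and the replicate block. Scripts were tested on simulated data. No replicate pair agreed within sampling noise. Replicates are separate samples by their labels, and p-values measure the spread between these samples. The members and lists were chosen with earlier results of these data known. Named genes were the 6 members, Nfkbie, list genes past the threshold in any compartment, the 3 most similar genes per member and transcripts of at least 0.5 CPM. Some listed genes are not reported here and were left out of the lists.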

Additional observations from a re-analysis of the deposited data

Results flagged for a closer look

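Cd86 in NFKBIE-ko spleen replicate 2 lay far below the other libraries of its group, at 26.0 CPM against 40.7 to 43.3 CPM, and its gap to the nearest library was 0.849 of the group's range. This was 1 of 24 groups of 4 libraries examined, and chance flags about 1 in 20. The effect of NFKBIE-ko on Pdcd1lg2 differed between the PC and the spleen by 2.11 on the log2 scale. The effect on Cd274 differed between the PC and cultures by 1.58 on the log2 scale.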

How the results depend on the processing

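Of 1282 alternative values for 86 results, 1177 kept their direction and side of the threshold, 37 became weaker, 15 stronger, 20 reversed and 33 counts moved. In the PC, the 5 tested members kept direction and call under all alternatives. In the spleen, DESeq2 also called Pdcd1lg2 (0.74, 4 members). Residuals of equal replicate numbers correlated at -0.320 to 0.227 between groups, not above 0.1 in every pair of any of them. Spleen and PC cells were recovered from the transplanted mice, so some of these samples may share a mouse. These correlations cannot exclude that, and the main fits treated all samples as separate. With a replicate block, Cd274 (1.18) and Cd86 (0.89) in the spleen and Icosl in vitro (1.76) lost their calls, leaving 1 member in the spleen and 0 in vitro. For the PC effect against the in vitro effect, DESeq2 on all samples called 2 members, Pdcd1lg2 being the second (1.65). It called 1187 of 17023 genes with a larger effect in the PC. On protein-coding transcripts alone, Icosl lost its call between NFKBIE-ko spleen and culture (-0.29, leaving 1 member), and its effect difference between PC and spleen was -0.36. Without both libraries that went against their labels, that difference was -0.041, 2 members passed between NFKBIE-wt spleen and culture (Pdcd1lg2 -1.31, Cd276 -2.34), Cd276 passed between NFKBIE-ko spleen and culture (-1.29), Cd274 did not between NFKBIE-wt PC and culture (0.62), and 2 members passed for the PC effect against that in vitro (Pdcd1lg2 1.95). In the last of these comparisons, 583 of 13758 genes had a larger effect in the PC. Member transcripts called by DESeq2 were 5 in the spleen and 3 in vitro, and its calls over all transcripts were not counted. The causes were not tested.

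With 1 library left out at a time, the spleen values spanned 0.96 to 1.40 for Cd274, 0.85 to 1.06 for Cd86 and 1 to 3 members. In vitro they spanned -0.095 to 0.41 for Cd274, 0.84 to 2.45 for Pdcd1lg2, 0.030 to 0.78 for Cd86, -0.031 to 0.38 for Cd80, -0.21 to 1.72 for Cd276, 1.72 to 1.83 for Icosl and 0 to 2 members. Between NFKBIE-wt spleen and culture they spanned -1.38 to 0.23 for Pdcd1lg2, -0.37 to 0.028 for Cd80, -0.54 to 0.21 for Cd86, -2.02 to -0.088 for Cd276 and 0 to 2 members, for Cd80 in NFKBIE-ko samples -0.068 to 0.11, and between NFKBIE-wt PC and culture -1.02 to 0.59 for Pdcd1lg2. Effect differences spanned -0.041 to 0.18 for Cd80 and -0.045 to 0.18 for Icosl between PC and spleen, -0.20 to 1.73 for Cd276 with 0 to 2 members between PC and in vitro, and -1.24 to 0.69 for Cd276 with 0 to 1 members between spleen and in vitro (Cd276 1.05 without both libraries that went against their labels). Spleen transcripts called spanned 0 to 2. Over all genes, the spleen gave 281 higher and 382 lower, with DESeq2 735 and 902, with the block 46 and 44, with the spread of all 22 samples 952 and 1168, and with 1 library left out 58 to 684 and 75 to 833. In vitro, 4 and 0 became 95 and 135, 0 and 0, 77 and 199, and 0 to 316 and 0 to 469 in that order. In the PC, 2846 and 2642 became 1647 and 1547 with the spread of all samples. Counts behind Cd276 in the PC were 3 to 22 per library, which limits its precision.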
